A study of Mus musculus with 8 samples.

Results

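Integrins are heterodimeric adhesion receptors, each built from 1 alpha and 1 beta chain, and 10 chains other than those of VLA-4 (Itga4 and Itgb1) were followed here in hematopoietic stem cells of G-CSF-treated mice. They were Itga2, Itga2b, Itga5, Itga6, Itga9, Itgal, Itgam, Itgav, Itgb2 and Itgb3. They were chosen by gene symbol, and each had 1 probe set annotated to it alone, so that 10 genes of the 19938 measured were described. Itgam, alone of the 10, also had 3 probe sets annotated to several symbols, which were left out. The 10 genes form part of the 27 integrin chains on the array. The cells, called KSL SLAM cells, came from mouse bone marrow by sorting for c-Kit, Sca-1 and CD150 and against lineage markers, CD48 and CD41. Mice of the treated group were given granulocyte colony-stimulating factor (G-CSF) at 125 mcg/kg under the skin, 2 times a day, for 36 h, and mice of the control group received PBS for 36 h. Each group comprised 4 arrays described as independent, and each array held RNA pooled from 5 to 10 mice.

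Integrins link cells to matrix and to other cells, and their affinity is switched from inside the cell by talin and kindlin binding to the beta chain tail. The beta2 chain pairs with CD11 alpha chains in leukocyte integrins that bind ICAMs and complement fragments, and the beta3 chain forms the fibrinogen receptor of platelets and the vitronectin receptor. The beta1 chain pairs with most of the remaining alpha chains in receptors for collagen, fibronectin and laminin. In marrow, integrins hold stem cells in their niche, and G-CSF is the cytokine used to release them into blood.

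None of the 10 chains passed the threshold of an adjusted p under 0.05 (limma, Benjamini-Hochberg adjustment over all 19938 genes), at which 0.0953% of all genes were called. The chains of Mac-1 had the largest differences, with Itgam at 3.20-fold and Itgb2 at 2.36-fold the PBS level. At an unadjusted p under 0.05, 3 of the 10 chains were higher after G-CSF, namely Itgam, Itgb2 and Itga6, and none was lower, against 6.07% of all genes higher and 2.94% lower. Among the brighter genes (mean intensity at or above the median gene), to which 9 of the 10 chains belonged, 11% were higher at that p. The groups did not overlap for 1 chain, Itgam, where 6.15% of all genes did not overlap, with the G-CSF arrays above at 3.37% and below at 2.78%. The log2 fold change was positive for 9 of the 10 chains, against 41.7% of all genes and 66.5% of the brighter genes. The median of the 10 log2 fold changes was 0.14, where the median over all genes was -0.07 and that of the brighter genes 0.13. Without PBS replicate 3 the median of the 10 was 0.03 and 5 of the 10 were positive, and after quantile normalization 6 were, since Itga2b, Itgav and Itgb3 turned negative in both and Itga5 in the first.

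**Figure D1:**
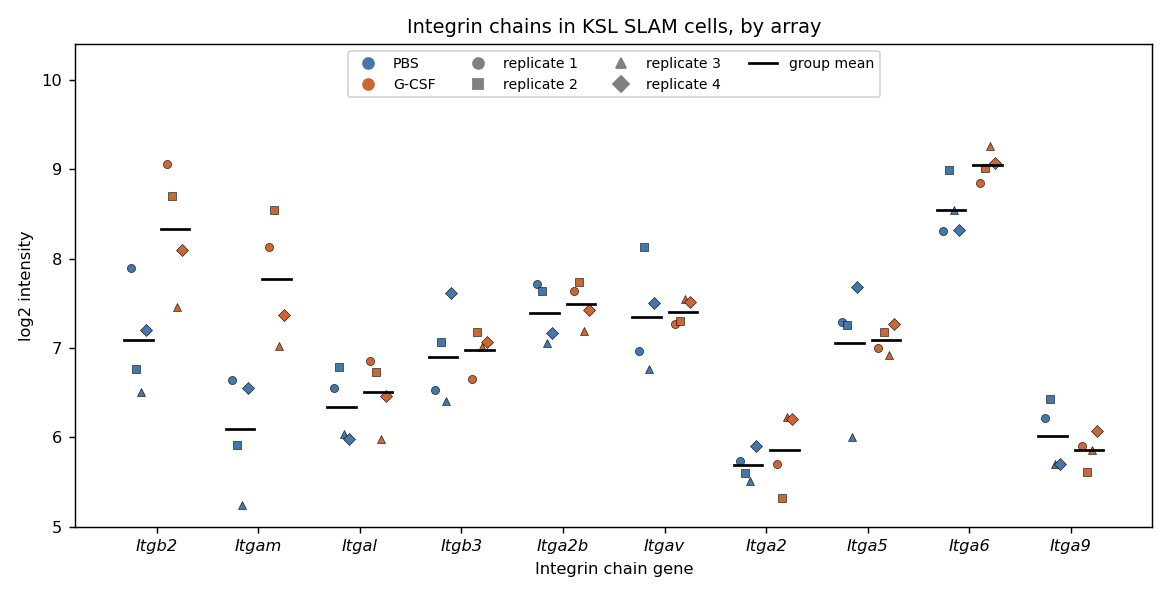
Log2 intensity (vertical axis) of the 10 integrin chains (horizontal axis), with 1 point per array, PBS in blue and G-CSF in orange, the marker shape giving the replicate and black bars the means of 4 arrays. Only for Itgam do all 4 G-CSF arrays (7.03 to 8.54) lie above all 4 PBS arrays (5.25 to 6.65).

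PBS replicate 3 differed from the remaining arrays in scale. The interquartile range of its log2 values was 1.68, against 2.42 to 2.80 elsewhere, and it correlated with the others at 0.883 to 0.903, where those correlated among themselves at 0.956 to 0.977. It was the lowest of the PBS arrays for 8 of the 10 chains, as for 27% of all genes and 49.6% of the brighter genes, so the value without it is given for each of the 10 chains, and for other genes where leaving it out turned the direction or moved the log2 fold change by over 1.5 times. The sorted cells carried stem cell transcripts, with c-Kit (Kit) at 10.24 to 10.94 over the 8 arrays and the mean of 12 stem cell markers at 7.90 to 8.66. CD48 is absent by the gate, and its gene Cd48 was at 6.66 to 8.95. Slamf1, the gene of CD150, was at 5.94 to 7.24. Ly6a, the gene of Sca-1, was not analysed here. Macrophage transcripts were also present in both groups, with the complement gene C1qc at 7.44 to 10.67 and the mannose receptor Mrc1 at 6.74 to 9.59.

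The beta2 integrins are the adhesion receptors of leukocytes, and Itgam encodes CD11b, the alpha chain of Mac-1, which binds complement-coated particles and ICAM-1. Itgam was at a log2 intensity of 6.65, 5.91, 5.25 and 6.55 in PBS replicates 1 to 4, and at 8.13, 8.54, 7.03 and 7.37 in G-CSF replicates 1 to 4. All G-CSF arrays lay above all PBS arrays, and the narrowest gap was between PBS replicate 1 and G-CSF replicate 3. The G-CSF mean was 7.77 ± 0.69 (SD, n = 4) and the PBS mean 6.09 ± 0.65 (SD, n = 4), giving a log2 fold change of 1.68 ± 0.38 SE with an unadjusted 95% interval of 0.85 to 2.51 (limma adjusted p = 0.206). Without PBS replicate 3 the log2 fold change was 1.40 (limma adjusted p = 0.269). In RNA of pooled sorted cells, a larger share of cells with a transcript and more of it per cell cannot be told apart.

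Of the 10 chains, 6 had a promoter entry in the RefSeq table (GRCm38.p6), and the 250 bases before the start of Itgam are shown with those of Itga2b, the gene of CD41, because Itgam had the largest difference and Itga2b belongs to the sort gate. Capitals mark GGAA, the core bound by ETS factors such as PU.1, on either strand. The Itgam window is chr7:128062390-128062639 on the plus strand and the Itga2b window chr11:102469884-102470133 on the minus strand, both 5′ to 3′.
Itgam: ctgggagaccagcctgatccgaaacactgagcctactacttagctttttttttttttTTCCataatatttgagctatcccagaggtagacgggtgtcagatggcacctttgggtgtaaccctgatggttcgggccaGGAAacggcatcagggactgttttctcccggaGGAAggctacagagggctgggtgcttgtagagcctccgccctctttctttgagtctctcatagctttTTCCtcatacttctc
Itga2b: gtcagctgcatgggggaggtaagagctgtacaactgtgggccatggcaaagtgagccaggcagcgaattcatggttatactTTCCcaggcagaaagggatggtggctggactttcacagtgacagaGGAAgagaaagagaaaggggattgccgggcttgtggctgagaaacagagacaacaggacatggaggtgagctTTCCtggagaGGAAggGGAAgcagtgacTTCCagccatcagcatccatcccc
GGAA matched 4 times before Itgam and 6 times before Itga2b, and 93.4% of 32851 RefSeq windows of the same length held it. GAGGAA, whose matches all contain GGAA, was found 2 times in each, starting 84 and 15 bases before the Itgam start, and 23.3% of windows held it. GATA was found 1 time before Itgam and was not in the Itga2b window, and 53.6% of windows held it. The STAT consensus TTCNNNGAA was in neither window and in 7.02% of all windows. Each motif was searched on both strands, and a match is only a description of the letters.

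Itgb2 encodes CD18, the beta chain shared by all CD11 chains. PBS replicates 1 to 4 were at 7.89, 6.76, 6.50 and 7.21 for Itgb2, and G-CSF replicates 1 to 4 at 9.06, 8.70, 7.46 and 8.10. The groups overlapped, since G-CSF replicate 3 lay below PBS replicate 1. The G-CSF mean was 8.33 ± 0.70 (SD, n = 4) and the PBS mean 7.09 ± 0.61 (SD, n = 4), with a log2 fold change of 1.24 ± 0.37 SE with an unadjusted 95% interval of 0.42 to 2.06 (limma adjusted p = 0.357). Without PBS replicate 3 it was 1.04 (limma adjusted p = 0.474).

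Itgal, the CD11a chain of LFA-1, pairs with the same beta chain and had a much smaller difference. Its values were 6.55, 6.78, 6.04 and 5.98 in the PBS arrays and 6.86, 6.73, 5.98 and 6.46 in the G-CSF arrays, in replicate order. The groups overlapped almost fully, with the lowest array of each group at 5.98. The log2 fold change was 0.17 ± 0.25 SE, with an unadjusted 95% interval of -0.38 to 0.72. That interval left out the Itgb2 estimate of 1.24 but overlapped the Itgb2 interval of 0.42 to 2.06. The Itgal log2 fold change was 0.070 without PBS replicate 3, and with other single arrays left out it was between 0.050 and 0.35. Itgax, the CD11c chain of dendritic cells and macrophages, had -0.18 ± 0.22 SE, but 0.023 without PBS replicate 3. Itgad, the CD11d chain of tissue macrophages, had -0.06 ± 0.35 SE, and -0.18 without that array. Itgax and Itgad are the next 2 protein-coding genes after Itgam on the chromosome in RefSeq. Itgax was dim, with means of 4.23 after G-CSF and 4.41 after PBS where array medians were 5.74 to 5.89, and Itgad reached 7.73 in PBS replicate 1 alone, against 5.93 to 6.996 in the other arrays. Itgb2l, a gene related to Itgb2, had 0.52 ± 0.34 SE (limma adjusted p = 0.599), with its highest values, 6.65 and 7.24, in G-CSF replicates 1 and 2.

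**Figure D2:**
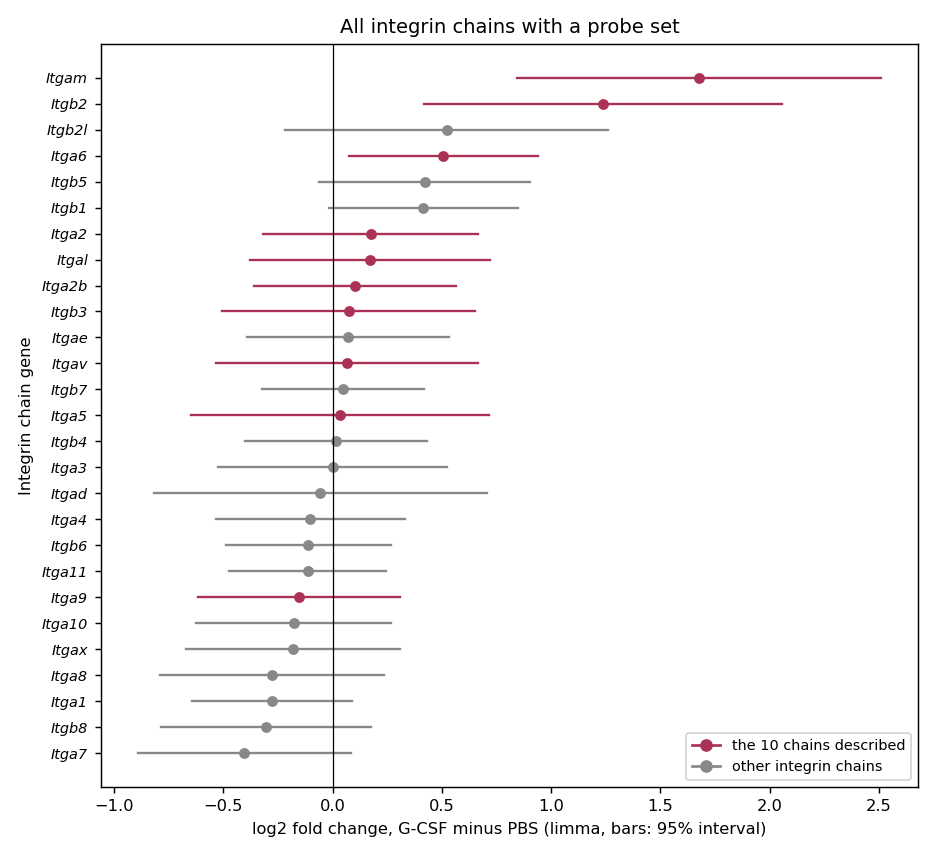
Log2 fold change of G-CSF minus PBS (horizontal axis, points) with its unadjusted 95% interval (bars, limma) for the 27 integrin chains with a probe set (vertical axis), the 10 chains described in red and the others in grey. The intervals of Itgam (0.85 to 2.51), Itgb2 (0.42 to 2.06) and Itga6 (0.07 to 0.94) lie above 0, and none of the 27 passed the threshold after adjustment.

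Mac-1 is abundant on neutrophils, monocytes and macrophages, and transcripts of these cells were measured beside it. Of 20 neutrophil markers listed, 18 were measured, and all 18 had a positive log2 fold change. Of these, 17 had an unadjusted p under 0.05 (limma), where 6.07% of all genes were higher at that p, although none passed over all genes. All 18 were again positive without PBS replicate 3, 15 with an unadjusted p under 0.05. Their mean log2 intensity was 8.14, 7.05, 7.40 and 7.33 in PBS replicates 1 to 4 and 10.47, 10.42, 8.25 and 8.93 in G-CSF replicates 1 to 4. The G-CSF arrays with the highest Itgam and Itgb2 values, replicates 1 and 2, also had the highest neutrophil marker means, and PBS replicate 1 was the highest PBS array for all 3 measures. The order of the other PBS arrays differed. PBS replicate 3 was the lowest of the PBS arrays for Itgam and Itgb2, but its neutrophil marker mean lay above those of PBS replicates 2 and 4. The highest arrays were not particular to neutrophil genes. Monocyte and macrophage, megakaryocyte and platelet, and erythroid averages also peaked with replicates 1 and 2 within the treated group. Within the PBS group these averages peaked with replicate 1. Lists for B cells, T and NK cells, mast cells with basophils and eosinophils, endothelium with stroma, and stem cells did not show both traits. The summed linear intensity of the 18 markers was 7464 to 17524 in PBS arrays and 18676 to 48057 in G-CSF arrays. Of the 18, 3 to 6 lay below the array median in PBS arrays and 0 to 1 in G-CSF arrays. Ly6g, a surface protein of neutrophils, was at 4.56 to 7.26 after PBS and 6.12 to 8.06 after G-CSF.

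Of 15 monocyte and macrophage markers, 13 were measured, 10 with a positive log2 fold change and none past the threshold. At an unadjusted p under 0.05 (limma) 4 were higher and none was lower, against 6.07% of all genes higher and 2.94% lower. Without PBS replicate 3, 2 were higher, against 5.64% of all genes. The chemokine receptor gene Ccr2 had 0.91 ± 0.24 SE and Ms4a6c, a membrane-spanning 4A gene, 1.40 ± 0.39 SE. For both, all G-CSF arrays lay above all PBS arrays, as for 3.37% of all genes. Ms4a6c had 0.92 without PBS replicate 3. Averaged over the 13 genes, the PBS arrays had 7.89, 6.83, 6.51 and 6.74 and the G-CSF arrays 7.68, 7.94, 6.82 and 7.40, with a summed linear intensity of 1438 to 5691 and of 1791 to 5005. Csf1r, the receptor for macrophage colony-stimulating factor, had 0.91 ± 0.38 SE. These 3 genes were among the largest rises of the list, and its median was 0.28, or 0.10 without PBS replicate 3. Mrc1 was 1 of the 3 genes with a negative log2 fold change, at -0.13 ± 0.55 SE. By the marker average PBS replicate 1 lay between G-CSF replicates 1 and 2, whereas in Itgam it lay below all G-CSF arrays. Neutrophils, monocytes and macrophages carry lineage markers, against which the cells were sorted. The means of both marker lists lay above the array medians, 5.74 to 5.89, in every array. So did the means of the erythroid, the megakaryocyte and platelet, and the stem cell lists. Of the 13 monocyte and macrophage genes, 5 lay below the array median in PBS replicate 3 and 1 in G-CSF replicate 1. An array median does not show whether a gene exceeded background. The part of either cell group in the values of Itgam and Itgb2 was not tested.

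**Figure D3:**
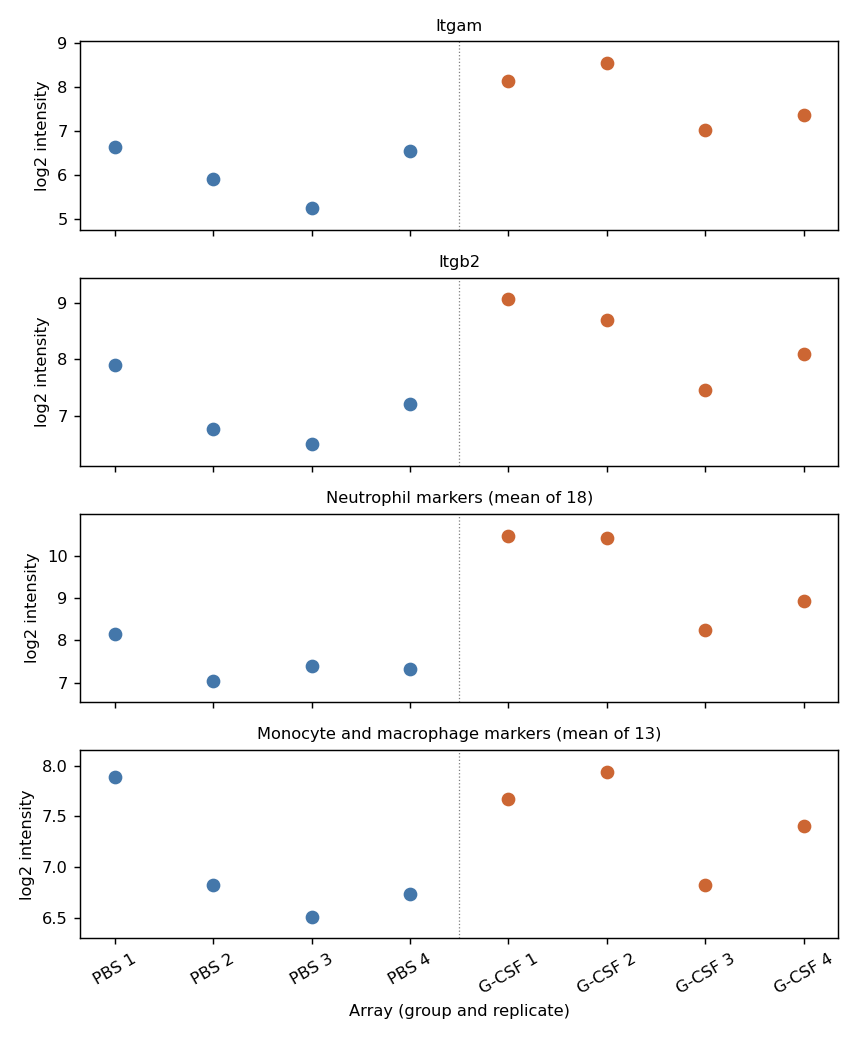
Log2 intensity (vertical axes) of Itgam and of Itgb2, and the mean log2 intensity of 18 neutrophil and of 13 monocyte and macrophage markers, in each of the 8 arrays (horizontal axis), PBS in blue and G-CSF in orange. Itgam, Itgb2 and the neutrophil mean are highest in G-CSF replicates 1 and 2, where the neutrophil means are 10.47 and 10.42, while the monocyte and macrophage mean of PBS replicate 1 (7.89) lies among those of the G-CSF arrays. Within the G-CSF group, the monocyte and macrophage mean also peaks with replicates 1 and 2.

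Among all other genes with standard names, those whose profiles over the 8 arrays came closest to Itgam, by the root mean square difference of mean-centred log2 values, were Ceacam1, an adhesion molecule of the carcinoembryonic antigen family (0.27), Slfn2, a schlafen gene (0.31), and Ngp, a neutrophil granule protein (0.32). Closest to Itgb2 were Slfn2 (0.20), the actin-severing factor Dstn (0.27) and the transcription factor Nfil3 (0.28). For comparison, the SD over the arrays was 1.09 for Itgam and 0.90 for Itgb2. The chain with the next largest SD, 0.49, was Itga5, and closest to it were Phf12 (0.08), Polr3b (0.11) and Arhgap35 (0.11).

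The beta3 integrins serve platelets and their precursors. Itga2b encodes CD41, which the sort excluded at the cell surface, so the gate bears on its level in both groups. Its transcript was at 7.72, 7.64, 7.06 and 7.16 in PBS replicates 1 to 4 and at 7.64, 7.74, 7.18 and 7.42 in G-CSF replicates 1 to 4. The groups overlapped over nearly their whole range, and the fold change was 1.07 with an unadjusted 95% interval of 0.780 to 1.48 (log2 0.10 ± 0.21 SE, limma adjusted p = 0.839). Without PBS replicate 3 the log2 fold change was -0.0089.

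Itgb3, the partner of Itga2b and of Itgav, was at 6.53, 7.07, 6.41 and 7.61 after PBS and at 6.65, 7.17, 7.01 and 7.07 after G-CSF, in replicate order. All G-CSF values lay within the range of the PBS values. The log2 fold change was 0.07 ± 0.26 SE, with an unadjusted 95% interval of -0.50 to 0.65, and -0.093 without PBS replicate 3 and -0.051 without PBS replicate 1. Itgav, the alpha chain of the vitronectin receptor, was at 6.97, 8.13, 6.76 and 7.50 after PBS and at 7.27, 7.30, 7.55 and 7.52 after G-CSF. These values again fell inside the PBS range, with a log2 fold change of 0.07 ± 0.27 SE (-0.54 to 0.67), and -0.13 without PBS replicate 3 and -0.059 without PBS replicate 1. The spread between PBS arrays was wider than that between G-CSF arrays for both genes, with SDs of 0.55 against 0.23 for Itgb3 and 0.61 against 0.15 for Itgav.

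Megakaryocyte and platelet transcripts were measured beside the beta3 chains, and of 16 listed, 12 were measured, none past the threshold. The log2 fold change was positive for 3 and negative for 9, where 41.7% of all genes were positive. The median was -0.24. Their summed linear intensity was 1960 to 3338 in PBS arrays and 1972 to 2633 in G-CSF arrays. Ppbp, a platelet chemokine, had -1.25 ± 0.37 SE (limma adjusted p = 0.347), with 8.60, 7.74, 6.57 and 6.95 after PBS and 6.35, 5.95, 6.16 and 6.40 after G-CSF. Its G-CSF arrays lay below all PBS arrays, as for 2.78% of all genes. Pf4, platelet factor 4, had -1.01 ± 0.72 SE. Ppbp and Pf4 were the lowest of the 12. The highest was P2ry12, at 0.52 ± 0.33 SE, with 6.15 in G-CSF replicate 1 and 4.55 to 4.59 in the other G-CSF arrays.

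The alpha chains that pair with beta1 bind matrix. Itga6, a laminin receptor chain that long-term stem cells carry, was at 8.31, 8.99, 8.54 and 8.32 in PBS replicates 1 to 4 and at 8.84, 9.01, 9.26 and 9.07 in G-CSF replicates 1 to 4. The groups overlapped only through PBS replicate 2, which lay above G-CSF replicate 1. After G-CSF the mean was 9.05 ± 0.17 (SD, n = 4), against 8.54 ± 0.32 (SD, n = 4), a 1.42-fold difference with an unadjusted 95% interval of 1.05 to 1.92 (log2 0.51 ± 0.20 SE, limma adjusted p = 0.507). The log2 fold change was 0.51 without PBS replicate 3 and 0.66 without PBS replicate 2 (limma adjusted p = 0.350). Among the G-CSF arrays, Itga6 was highest in replicate 3, where Itgam and Itgb2 were lowest, and lowest in replicate 1.

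Itga5, the alpha chain of the fibronectin receptor, was at 7.29, 7.25, 6.01 and 7.68 after PBS and at 7.005, 7.18, 6.92 and 7.27 after G-CSF. PBS replicate 3 lay far below the other PBS arrays. The log2 fold change was 0.03 ± 0.31 SE over all arrays and -0.32 without that array (limma adjusted p = 0.628). It was also negative, -0.026, without G-CSF replicate 4. Itga9, which with beta1 binds tenascin and osteopontin, was at 6.22, 6.43, 5.70 and 5.70 after PBS and at 5.91, 5.62, 5.86 and 6.07 after G-CSF. It was the only one of the 10 chains with a negative log2 fold change, -0.15 ± 0.21 SE (-0.62 to 0.31), and the groups overlapped. The value was -0.26 without PBS replicate 3 and -0.014 without PBS replicate 2. Itga2, a collagen receptor chain, was at 5.74, 5.60, 5.51 and 5.90 after PBS and at 5.70, 5.32, 6.22 and 6.20 after G-CSF. G-CSF replicates 3 and 4 lay above all PBS arrays and G-CSF replicate 2 below them all, with a log2 fold change of 0.17 ± 0.22 SE (-0.32 to 0.67). It was 0.11 without PBS replicate 3, and between 0.053 without G-CSF replicate 3 and 0.35 without G-CSF replicate 2. Itga2 and Itga9 were close to the array medians of 5.74 to 5.89, and no detection call was available to say whether they exceeded background.

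Because a receptor needs both chains, the difference in log2 intensity of alpha and beta chain was taken within each array for 8 known pairs and compared between the groups. The level of such a difference has no meaning of its own, as probe sets differ in brightness, but its change between groups shows unequal change of the chains. Itgal minus Itgb2 was -1.34, 0.02, -0.46 and -1.23 in PBS replicates 1 to 4 and -2.20, -1.97, -1.48 and -1.64 in G-CSF replicates 1 to 4. The groups did not overlap, and the G-CSF mean was apart from the PBS mean by -1.07 (exact 2-sided permutation p = 0.0286, the smallest that 4 against 4 arrays allow, and 0.229 when adjusted over the 8 pairs). With any single array left out it was between -1.26 and -0.81. Itgam minus Itgb2 differed by 0.44 (exact permutation p = 0.143, adjusted p = 0.381), with overlapping groups.

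For the pairs of the beta3 chain the groups overlapped and the differences were small beside the spread between arrays. Itga2b minus Itgb3 differed by 0.03 (exact permutation p = 0.971) and Itgav minus Itgb3 by -0.01 (exact permutation p = 1). Among the beta1 pairs the differences of G-CSF minus PBS were 0.09 for Itga6, -0.24 for Itga2, -0.38 for Itga5 and -0.57 for Itga9, with exact permutation p = 0.657, 0.343, 0.200 and 0.0857. With single arrays left out these ranged from -0.069 to 0.24 for Itga6, -0.32 to -0.084 for Itga2, -0.58 to -0.23 for Itga5 and -0.73 to -0.44 for Itga9. After adjustment over the 8 pairs, 0 passed, and at an unadjusted p under 0.05 there was 1, Itgal minus Itgb2. With 4 against 4 arrays at least 5 of the 8 pairs would have had to reach the smallest p of 0.0286 for any to pass, so the count of 0 says little about the pairs.

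**Figure D4:**
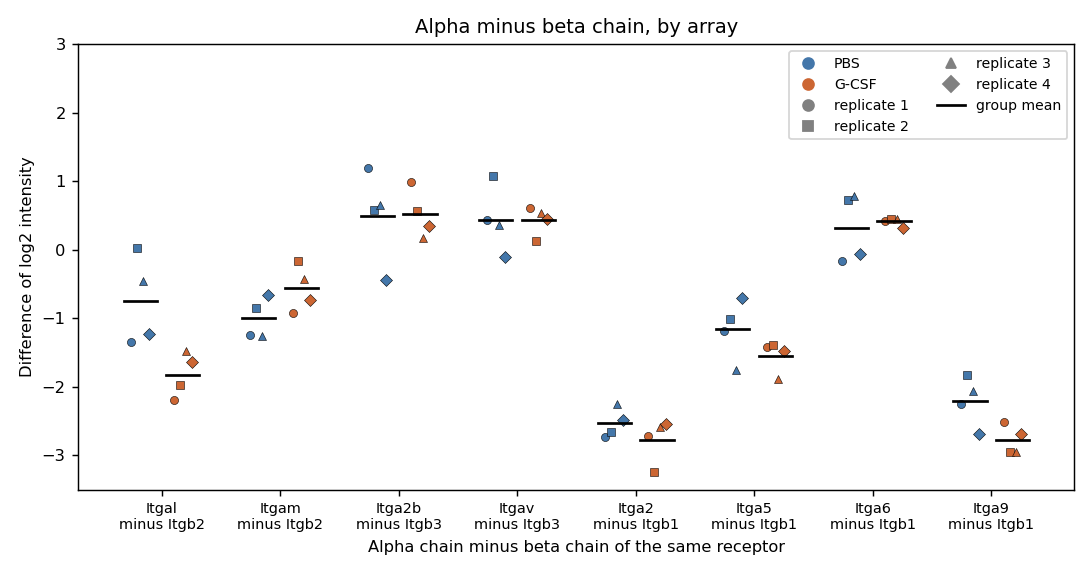
Difference of log2 intensity of alpha minus beta chain (vertical axis) for 8 receptor pairs (horizontal axis), with 1 point per array, PBS in blue and G-CSF in orange, the marker shape giving the replicate and black bars the means of 4 arrays. For Itgal minus Itgb2 all G-CSF arrays (-2.20 to -1.48) lie below all PBS arrays (-1.34 to 0.02), and the groups overlap for all other pairs.

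Of the 17 integrin chains outside the 10, none passed the threshold or an unadjusted p under 0.05 (limma), and their median log2 fold change was -0.10, or 0.0010 without PBS replicate 3. The beta1 chain Itgb1 had 0.41 ± 0.20 SE (limma adjusted p = 0.552) and its VLA-4 partner Itga4 -0.10 ± 0.20 SE. These were 0.26 and -0.25 without PBS replicate 3. Itgb5, another partner of Itgav, had 0.42 ± 0.22 SE. Itga1, a collagen receptor chain, had means of 3.87 after G-CSF and 4.15 after PBS, far under the array medians. Its G-CSF arrays lay below its PBS arrays by a very narrow gap, with the highest G-CSF array at 3.9461 and the lowest PBS array at 3.9468. Of all genes, 2.78% lay below in this way. The Itga1 log2 fold change of -0.28 was -0.18 without PBS replicate 3.

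Genes that activate integrins or join them to the cytoskeleton were the next group, and of 41 listed, 39 were measured and none passed over all genes. At an unadjusted p under 0.05, 4 of the 39 were higher and 1 lower. At that p 6.07% of all genes and 11% of the brighter genes were higher, and 2.94% of all genes lower. The median was 0.10, or 0.05 without PBS replicate 3. The next 4 genes are named for their low p within the list. Cib1, which binds the cytoplasmic tail of Itga2b, had 0.76 ± 0.21 SE (limma adjusted p = 0.316). The actin crosslinker Actn1 had 1.25 ± 0.39 SE, with 7.39, 5.52, 6.04 and 7.23 after PBS and 7.81, 8.23, 7.27 and 7.85 after G-CSF, so that PBS replicate 1 overlapped the G-CSF arrays. Skap2, an adaptor in beta2 integrin activation, had 0.59 ± 0.19 SE (limma adjusted p = 0.388). Its G-CSF arrays lay above all PBS arrays, as for 3.37% of all genes. Filamin A (Flna), which links beta chain tails to actin, had 0.70 ± 0.27 SE, and 0.43 without PBS replicate 3.

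The talin gene Tln1 had 0.04 ± 0.17 SE and the kindlin-3 gene Fermt3 0.47 ± 0.43 SE. Both turned negative without PBS replicate 3, at -0.062 and -0.046. Over all arrays Tln1 had an unadjusted 95% interval of -0.34 to 0.42, and that of Fermt3 was wider, -0.46 to 1.41. Both were named after their values were seen, for their role as the direct activators of integrins.

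Of 36 genes of integrin ligands and counter-receptors, 31 were measured and none passed the threshold. At an unadjusted p under 0.05 there was 1 of the 31, against 9.01% of all genes. That gene was Thbs1, thrombospondin, with -0.54 ± 0.25 SE (limma adjusted p = 0.551). The median was -0.12, or -0.04 without PBS replicate 3. The laminin genes Lama5 and Lamc1 had -0.38 ± 0.18 SE and 0.37 ± 0.18 SE. Adam15, a disintegrin metalloprotease, had 0.30 ± 0.15 SE, and its G-CSF arrays lay above all PBS arrays. Cd47, a thrombospondin receptor, was named after its values were seen and had -0.20 ± 0.15 SE. Its G-CSF arrays lay below its PBS arrays by a very narrow gap, with the highest G-CSF array at 11.4083 and the lowest PBS array at 11.4088. Over all genes, the G-CSF arrays lay fully above for 3.37% and fully below for 2.78%.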

How the data were processed

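Per the labels, amplification used NuGen Ovation and the arrays were MoGene 1.0 ST. The authors deposited 1 intensity per probe set and array, made with RMA per the submitters' processing notes, with version and options not given in the sources used here. The deposited intensities were never negative and reached 16163, so they were read as linear, and log2 was taken. Of 35556 probe sets, 21789 had 1 gene symbol in the platform annotation, and the brightest per gene was kept, leaving 19938 genes. The comparison used limma 3.58.1 under R 4.3.3 (lmFit, eBayes, 2-sided). The scripts were tested on simulated arrays for this comparison with 19938 genes. There 37 of 67 genes changed by 1 on the log2 scale were recovered and 65 of 67 changed by 2, with 11 false calls. In the real arrays the neutrophil gene Stfa2 did not pass with a log2 fold change of 4.55 (limma adjusted p = 0.0639). The simulated shares therefore check the scripts and do not give the power for the integrin chains. The alternatives were other variance moderation, array weights, renewed normalization or centring, the replicate block, other probe set rules, brighter genes only and single arrays left out. No filter on dim genes was applied in the comparison as reported, and the number of arrays limits the precision.

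The members and gene lists were chosen with earlier results of these data known. All 10 chains were named. Other integrin chains could be named, with up to 4 genes of the lowest p from each further list, 3 of the highest mean or lowest p from marker lists plus Pf4, Ly6g and Csf1r, and the sort gate genes. Cd47, the macrophage genes C1qc and Mrc1 and the activators Tln1 and Fermt3 were named after their values were seen. Over all genes, same-numbered arrays of the groups hardly deviated together, with correlations of deviations between -0.03 and 0.14, and no label pairs them. For single chains this differed, as Itgam and Itgb2 were both lowest in replicate 3 of each group. With the replicate block the SE was 0.22 instead of 0.37 for Itgb2 and 0.28 instead of 0.38 for Itgam. For Itga9 it was 0.23 instead of 0.21. Whether the replicates were paired was not tested.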

Additional observations from a re-analysis of the deposited data

How the results depend on the processing

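None of the 10 chains passed in any of the 17 alternatives (16 for Itga2, which was not among the brighter genes), with lowest adjusted p of 0.118 for Itgam and 0.133 for Itgb2, both with the replicate number as a block. That replicate block gave 23 higher genes and 0 integrin chains, and for the alpha and beta pairs its exact sign-flip test could not go below 0.125, so that no pair could pass under it (lowest adjusted p 0.400). Over the alternatives Itgam had 1.36 to 1.92 and Itgb2 0.98 to 1.53. Of 169 member values, 17 changed sign, all of Itga2b, Itga5, Itgav and Itgb3. With array weights Itga5 was -0.28, Itgav -0.048 and Itgb3 -0.075. After quantile normalization Itga2b was -0.0089, Itgav -0.035, Itgb3 -0.0078 and Itga2b minus Itgb3 -0.0011. With PBS replicate 3 left out as well they were -0.037 for Itga2b, -0.34 for Itga5, -0.15 for Itgav and -0.12 for Itgb3. With single arrays left out, Itga2b ranged from -0.0089 to 0.21, Itga5 from -0.32 to 0.24, Itgav from -0.13 to 0.33 and Itgb3 from -0.093 to 0.31. Without changing sign, Itgal ranged from 0.050 to 0.35, Itga9 from -0.26 to -0.014 and Itga2 from 0.053 to 0.35. Of 23 other genes, 4 changed sign, with Itgax from -0.31 to 0.023, Itgad from -0.28 to 0.32, Tln1 from -0.062 to 0.10 and Fermt3 from -0.046 to 0.76. In the same way Itga2b minus Itgb3 ranged from -0.28 to 0.26, Itgav minus Itgb3 from -0.19 to 0.20 and Itga6 minus Itgb1 from -0.069 to 0.24. Over all genes, where 19 were higher and 0 lower (586 lower at an unadjusted p under 0.05, limma), array weights gave 37 and 3, quantile normalization 10 higher, and quantile normalization without PBS replicate 3 gave 1 lower. Leaving out single arrays gave 3 to 30 higher and 0 to 2 lower, with 3 without G-CSF replicate 2, 7 without G-CSF replicate 4, 10 without G-CSF replicate 1 and 30 without G-CSF replicate 3. The causes were not tested. The list values without PBS replicate 3, and those of the other genes with single arrays left out, were chosen after seeing the data.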
